A study of Mus musculus with 12 samples.

Results

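The effect of Foxp1 deletion was measured in mouse splenic B cells that had not been stimulated. The comparison used 6 of the study's 12 Affymetrix arrays, chosen by their titles: the 3 labelled Foxp1flox/del B cells_unstimulated, called deleted here, and the 3 labelled Foxp1wt/flox B cells_unstimulated, called control. An allele marked flox can be deleted on demand and an allele marked del has already lost that part, and the controls also carried 1 flox allele. Cells of both genotypes came from spleens of mice on a mixed 129/Sv-C57BL/6 background, were sorted on the B cell surface protein B220, and were incubated for 4 h without stimulus. The other 6 arrays held cells of the same genotypes after 4 h with what the labels call IgM. Replicates are numbered 1 to 3 in every group. The labels used here name no recombinase or promoter, no age, and not whether each array held 1 mouse or a pool. The p-values therefore measure a spread between these samples that may be partly technical. It is the spread left over all 12 arrays after differences between replicate numbers are removed, not the full spread within a group.

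Foxp1 is a forkhead transcription factor that binds DNA as a dimer and often represses its targets. In the B lineage it is known for a part in early development, where recombination of the antibody genes depends on it, and in the upkeep of mature B cells. Binding of antigen to the B cell receptor raises a set of early response genes within hours, and the genes below are grouped by their roles around that receptor, in survival, in B cell maturation, in traffic and in metabolism.

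Values are log2 intensities per probe set, and differences are deleted minus control on that scale, with the standard error (SE) from limma. A gene rose or fell where its adjusted p was under 0.05, with the replicate number as a block (a fixed term for each number), Benjamini-Hochberg adjustment over 9293 genes and a two-sided test. A value at or below 4 is close to the floor of these arrays (2.23), where values have no reliable order. In a bulk sample, fewer cells of a type and less RNA per cell cannot be told apart, nor can more of either.

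The array has 8 probe sets for Foxp1, and none of them differed between the genotypes past the threshold. Their differences ran from -0.29 to 0.13. On the probe set with the highest mean, Foxp1 was at 12.27, 13.14 and 13.3 in control replicates 1, 2 and 3 and at 12.26, 13.16 and 13.2 in the deleted ones. Which exons these probe sets read, and which exons the deletion removes, is not given in the sources used here, so they check neither the labels nor the loss of the protein.

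Markers of the labelled cell type were high. The 15 pan-B cell genes on the array had a mean of 12.02 to 12.15 on control arrays and 12.01 to 12.1 on deleted arrays. None lay at or below 4 on all 6 arrays. These values show that B cells were present, not that other cells were absent, and markers of other blood cells are described below. Same-numbered arrays resembled each other across genotypes. Their deviations from the group means correlated at 0.78, 0.55 and 0.78 across genes, against -0.75 to -0.07 for arrays of different number. Deviations within a group cancel out, so positive values for same-numbered arrays tend to make the others negative. With IgM the same-numbered values were 0.8, 0.17 and 0.68, and deleted replicate 2 correlated at 0.35 with control replicate 1. The X-inactivation RNA Xist was at 2.31 on the control and 2.23 on the deleted replicate 1 array and at 10.75 to 11.75 on the other 4, while the Y-linked gene Eif2s3y was measured on all 6 arrays at 8.22 to 10.66. The array of deleted cells with IgM, replicate 3, was left out in an alternative fit, and no other IgM array was left out singly. That array enters only through the shared spread and the block. Without it 2007 genes passed the threshold, including all 640 described next, and split into 1076 higher and 931 lower.

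Rises outnumbered falls in deleted cells. Of 9293 genes tested, 640 passed the threshold (6.89%): 419 were higher in deleted cells (4.51%) and 221 were lower (2.38%). The median size of the rises was 1.56 (0.53 to 7.71) and that of the falls 1.09 (0.54 to 3.36). Rises beyond 3 numbered 58 and falls beyond 3 numbered 2, while the median difference over all tested genes was 0.0 and the median absolute difference 0.18. All 640 genes moved the same way in the 3 same-numbered pairs, as did 54.8% of all tested genes. In 581 of them the values of the 2 genotypes did not overlap, against 18.9% of all tested genes (10.3% with the deleted values above and 8.55% with them below). Many rises began near the floor: 111 of the 419 had a control mean at or below 4, as had 338 of all tested genes.

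The count and its split depended on the replicate block and on the arrays used. Without the block 265 genes passed, all among the 640 and split into 189 higher and 76 lower. On the 6 unstimulated arrays alone, with the block, 754 were higher and 589 lower, and with array weights 1130 and 994. Leaving out 1 array at a time gave 280, 364 and 420 genes without deleted replicates 1, 2 and 3, and 279, 340 and 362 without control replicates 1, 2 and 3. Of the 640 genes, 240 passed in all 6 of these fits, 176 higher and 64 lower. When a replicate number was left out of every group, 69 genes passed without replicate 1, 125 genes without replicate 2 and 1201 genes without replicate 3.

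**Figure D1:**
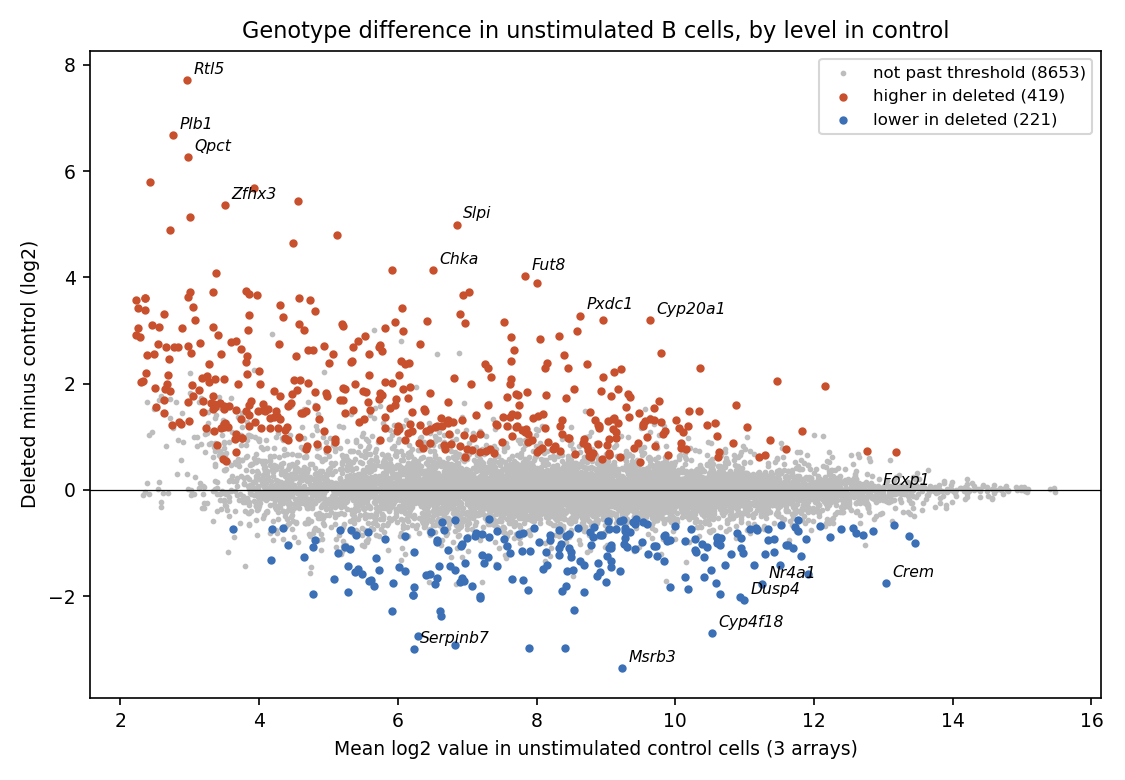
Each point is 1 of 9293 tested genes, placed by its mean log2 value on the 3 unstimulated control arrays and by the difference, deleted minus control (log2). The 419 genes higher in deleted cells (red) reach 7.71 and include many with a control mean at or below 4, while the 221 lower genes (blue) reach -3.36, and Foxp1 (-0.03) lies among the genes that did not pass.

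Among genes measured above 6 in both genotypes, the largest rises were in a protease inhibitor, in enzymes of lipid and sugar metabolism, in surface receptors and in granule proteins. Slpi, a secreted inhibitor of leukocyte serine proteases, was at 7.0, 6.72 and 6.82 on the control arrays and at 12.34, 10.78 and 12.4 on the deleted ones. The deleted values lay far above the control values, with replicate 2 lowest, and the difference was 4.99 (SE 0.46, adjusted p = 0.000325 by limma). Chka, the choline kinase that begins phosphatidylcholine synthesis, was at 6.2, 6.43 and 6.9 in control and at 10.15, 10.52 and 11.28 in deleted cells, a difference of 4.14 (SE 0.22, adjusted p = 2.11e-05 by limma). Its order across replicates was the same in both genotypes.

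Fut8, which adds the core fucose to N-linked glycans, was at 7.75, 8.35 and 7.42 in control and 11.77, 11.93 and 11.87 in deleted cells, a 16.2-fold rise. Slamf9, a receptor of the SLAM family, was at 8.28, 7.73 and 8.01 in control and 11.72, 12.1 and 11.86 in deleted cells, a 14.8-fold rise. For both genes the spread within a genotype was below 1 log2 unit and the genotypes were far apart. Pdcd1lg2, the PD-1 ligand PD-L2, was at 5.81, 6.55 and 5.81 in control and at 9.39, 9.5 and 9.54 in deleted cells (difference 3.42, SE 0.52). Parp8, of the ADP-ribosyltransferase family, rose by 3.66 (SE 0.26), Pxdc1, a PX domain protein, by 3.28 (SE 0.18), and Cyp20a1, a cytochrome P450 without a settled substrate, by 3.2 (SE 0.2). These 8 genes also passed without the block.

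The other 4 of the 12 leading rises were granule enzymes of myeloid precursors, and they varied widely within a genotype. Mpo, myeloperoxidase, was at 8.91, 10.24 and 7.72 in control and 13.06, 12.26 and 11.15 in deleted cells, a difference of 3.2 (SE 0.44). Prtn3 (3.73, SE 0.64), Ctsg (3.31, SE 0.7) and Elane (3.17, SE 0.78), which encode proteinase 3, cathepsin G and neutrophil elastase, were likewise highest in deleted replicate 1 and lowest in control replicate 3. None of the 4 passed without the block, where the adjusted p from limma was 0.0544 for Mpo, 0.218 for Prtn3, 0.122 for Ctsg and 0.378 for Elane.

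**Figure D2:**
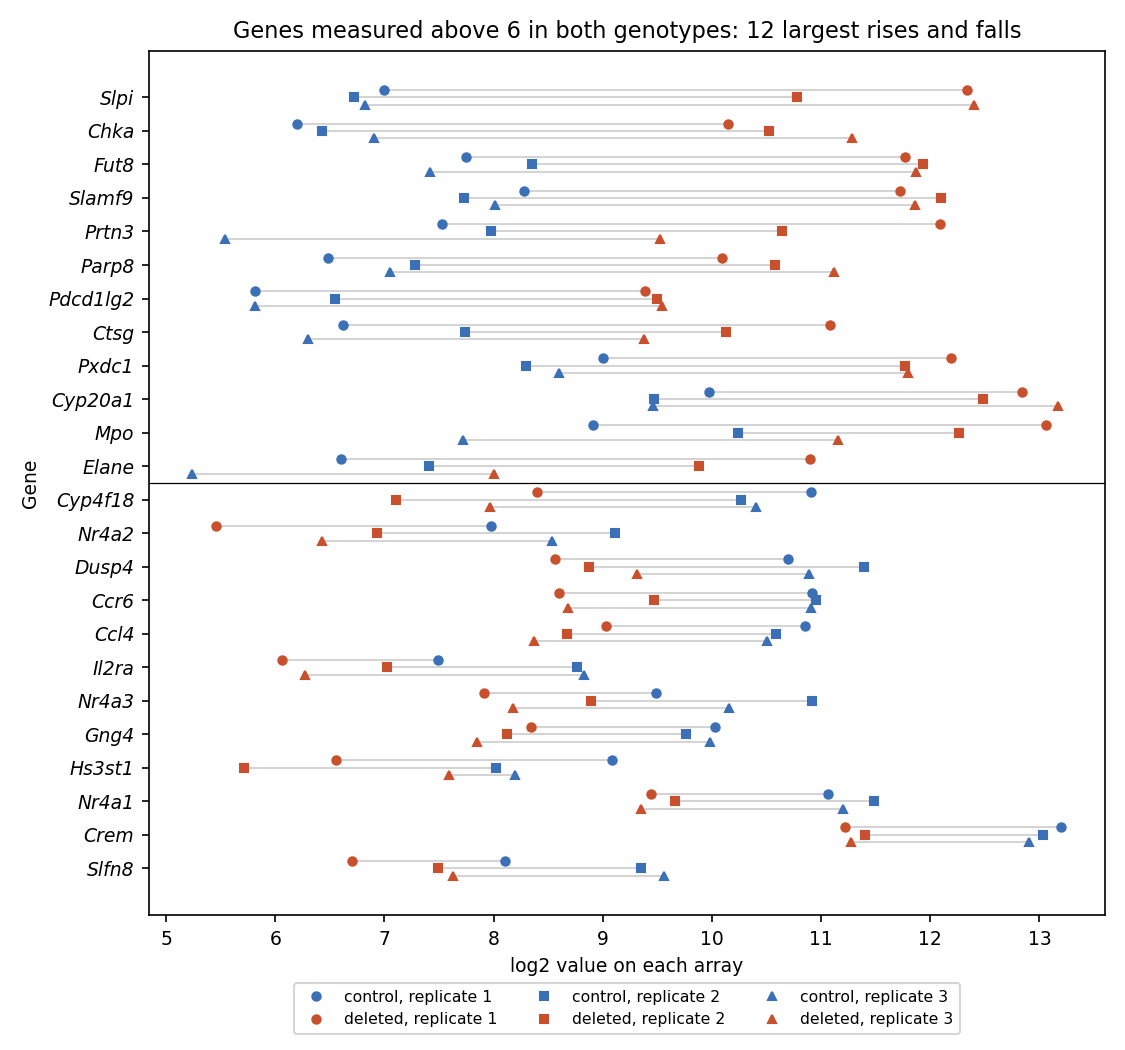
Log2 value on each of the 6 unstimulated arrays for the 12 largest rises (top) and 12 largest falls (bottom) among genes with both genotype means above 6, with grey lines joining same-numbered control (blue) and deleted (red) arrays. In all 24 genes the control and deleted values do not overlap, as in 18.9% of all tested genes. Choosing the largest differences, with same-numbered pairs moving the same way, favours such separation. The granule genes Mpo, Elane, Prtn3 and Ctsg spread most within a genotype.

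A further 79 of the 419 genes that rose had all 3 control values at or below 4. Since their control level is near the floor, the size of these differences depends on the background correction, and a gene that passed the filter on low values only through its high group was bound to differ. That held for 18 tested genes above 4 on the 3 deleted arrays alone, of which 17 passed the test. Rtl5, a gene derived from a retrotransposon Gag sequence, was at 2.86, 2.81 and 3.21 in control and at 9.92, 10.44 and 11.65 in deleted cells, a difference of 7.71 (SE 0.51). Plb1, a phospholipase B, was at 2.79, 2.7 and 2.79 in control and 9.12, 9.6 and 9.58 in deleted cells, and Pla1a, a phosphatidylserine-specific phospholipase, was at 3.99, 3.98 and 3.79 against 9.64, 9.84 and 9.35. All 3 genes went from the floor to the middle of the arrays' range in every pair.

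Qpct, the enzyme that forms N-terminal pyroglutamate, was at 3.04, 2.9 and 3.01 in control and 9.49, 8.55 and 9.7 in deleted cells. Hsd17b13, a dehydrogenase of lipid droplets, was at 2.45, 2.38 and 2.45 in control and at 8.13, 7.89 and 8.6 in deleted cells, and is 1 of the genes that the filter kept through the deleted arrays alone. Fam241b (2.59 to 3.48 against 7.92 to 8.5), the transketolase-like gene Tktl1 (2.24 to 2.98 against 7.53 to 7.72) and Skap1, an adaptor of integrin signalling in T cells (2.59 to 3.91 against 6.62 to 7.49), followed the same pattern. All 8 genes also passed without the block, but they were chosen on these same arrays for low control and high deleted values. For Hsd17b13 the filter had fixed that it would differ.

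The largest falls among genes above 6 in both genotypes were in nuclear receptors, a phosphatase, chemokine and cytokine signalling genes and a lipid-oxidising enzyme. Cyp4f18, which inactivates leukotriene B4, was at 10.91, 10.27 and 10.4 in control and at 8.4, 7.11 and 7.97 in deleted cells, a difference of -2.7 (SE 0.29, adjusted p = 0.000702 by limma). Ccr6, the receptor for CCL20, was at 10.92, 10.95 and 10.91 in control and at 8.6, 9.47 and 8.68 in deleted cells, a difference of -2.01 (SE 0.29). The control arrays agreed within 0.1 log2 units here, and the spread came from deleted replicate 2. Crem, a modulator of cAMP-responsive transcription, fell from 13.2, 13.03 and 12.9 to 11.22, 11.4 and 11.27.

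Gng4, a G protein gamma subunit, was lower by 1.82 (SE 0.23), although its passing probe sets gave differences from -2.47 to -0.08. Ccl4, a chemokine (-1.96), Il2ra, the interleukin-2 receptor alpha chain (-1.91), Hs3st1, a heparan sulfate sulfotransferase (-1.81), and Slfn8, of the Schlafen family (-1.73), fell with the block, but their adjusted p from limma without it was 0.172, 0.0521, 0.0613 and 0.197. The largest fall of any gene was in Msrb3, a methionine sulfoxide reductase. It was at 10.05, 8.96 and 8.69 in control and at 6.99, 5.06 and 5.57 in deleted cells (difference -3.36, SE 0.37).

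Of the 221 genes that fell, 12 had all 3 deleted values at or below 4. Dusp14, a MAP kinase phosphatase, was at 6.66, 6.42 and 5.79 in control and at 3.7, 3.46 and 3.46 in deleted cells. Serpinb7, a protease inhibitor, was at 6.82, 6.21 and 5.65 in control and at 3.21, 3.24 and 3.24 in deleted cells. The RNA-binding protein gene Igf2bp3, a fetal gene in many tissues, was at 5.1, 4.46 and 4.74 against 2.75, 2.95 and 2.75. Dctd, a deoxycytidylate deaminase, Tspan17, a tetraspanin, Rhbdf1, an inactive rhomboid, Ildr1 and Lca5 differed by -1.49, -1.93, -1.68, -1.07 and -1.26, from control values of 4.18 to 5.85. Rhbdf1 and Ildr1 did not pass without the block. Serpinb7, Tspan17 and Lca5 were above 4 on the 3 control arrays alone, so the filter kept them through those arrays.

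Many genes that B cell receptor signalling induces early fell. Of 39 tested, 16 fell and none rose, 34 had a negative difference, and the median was -0.67, against 0.0 over all tested genes. For this list and every list below, the shares over all tested genes are 4.51% higher and 2.38% lower. The counts of several lists lie near those shares. The lists were chosen with earlier results of these data known, so an excess over those shares may be partly built in. The 3 Nr4a orphan nuclear receptors led the early response list. Nr4a1 was at 11.06, 11.48 and 11.2 in control and 9.44, 9.66 and 9.35 in deleted cells (difference -1.77, SE 0.18, adjusted p = 0.000512 by limma). Nr4a2 was at 7.98, 9.11 and 8.53 against 5.46, 6.93 and 6.43 (-2.26, SE 0.28), with differences of -2.69 to -0.17 among its probe sets, and Nr4a3 at 9.49, 10.92 and 10.16 against 7.91, 8.89 and 8.18 (-1.87, SE 0.26). In Nr4a2 and Nr4a3 replicate 2 was the highest in both genotypes.

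The transcription factors Irf4 (-0.89), which drives plasma cell formation, Rel (-1.26), an NF-kB subunit, Egr2 (-0.96), Atf3 (-1.13), Junb (-1.05), Jun (-1.05) and Myc (-0.93), a driver of growth, also fell. So did the activation markers Cd69 (-0.9) and Cd83 (-0.67). Without the block 4 of the 16 falls passed. Without the replicate 3 array of deleted cells with IgM 24 genes of the list fell and 2 rose. Without replicates 1, 2 and 3 in turn 0, 4 and 14 fell.

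In the signalling chain below the receptor 4 genes rose and 3 fell of 42 (median 0.03). Pik3r5, a regulatory subunit of PI3-kinase gamma, rose by 3.08 (5.21 ± 0.68 in control, 8.29 ± 0.29 in deleted, SD, n = 3), and Pik3cg, its catalytic subunit, rose by 0.97. The Ras activators Rasgrp2 (1.8) and Rasgrp1 (0.89) rose, while the Src family kinases Blk (-0.78) and Fyn (-0.9) and Sh3bp5 (-0.73), a regulator of the kinase Btk, fell. Without the block 3 of the rises and none of the falls passed.

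Inhibitory receptors and phosphatases moved in both directions, with 5 higher and 2 lower of 26. Ctla4, the inhibitory receptor best known from T cells, fell from 6.62 ± 0.36 to 4.23 ± 0.18 (SD, n = 3; difference -2.38, adjusted p = 7.33e-05 by limma), and Ptprj, a receptor phosphatase, by 0.93. Pecam1, an adhesion molecule with inhibitory motifs, rose by 2.28, Cd300a by 3.31 from a control mean of 2.63, Lair1 by 1.5, Cd200 by 0.59, and Ptpn6, the phosphatase SHP-1, by 1.11. Pecam1, Cd300a and both falls also passed without the block.

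Feedback inhibitors of the MAP kinase and cytokine pathways moved in both directions. Spry1, a Sprouty inhibitor of Ras signalling, was at 2.62, 3.42 and 2.86 in control and 6.72, 6.91 and 6.15 in deleted cells (difference 3.63, SE 0.28), and its relative Spry2 rose by 2.63. Dusp4, a MAP kinase phosphatase, was at 10.7, 11.39 and 10.89 in control and 8.56, 8.87 and 9.31 in deleted cells (-2.08, SE 0.2), and Dusp5 (-1.11) and Dusp14 (-2.75) fell as well, while Dusp1 rose by 0.62. Socs3, an inhibitor of cytokine receptors, fell by 1.44. In all, 3 of 31 members rose and 4 fell.

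Of 26 NF-kB subunits, inhibitors and targets 6 fell, 1 rose and the rest did not pass (median -0.14). Beside Rel and Ccl4 these falls were in Bcl3 (-0.74) and Nfkbid (-0.71), inhibitor-like partners of the subunits, in the adaptor Traf1 (-1.41) and in Il10 (-1.72), and the adhesion molecule Icam1 rose by 0.82. None of the 7 passed without the block.

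Several cytokines fell, and chemokines known from myeloid cells and platelets rose. Il1b was at 6.82 ± 0.18 in control and 3.9 ± 0.21 in deleted cells (SD, n = 3; difference -2.91, adjusted p = 0.000492 by limma). Il6 (-1.8), Il12a (-1.38) and Il10 fell too, together with Ccl4. The 3 rises of this list of 26 were Ccl9 (3.16), Ccl6 (2.08) and the platelet factor Pf4 (2.63), of which Ccl9 passed without the block. Among 36 cytokine receptors, 7 rose and 4 fell. Il1r1, the interleukin-1 receptor, was at 3.23, 3.07 and 2.72 in control and 6.79, 6.8 and 6.63 in deleted cells. Both chains of the interleukin-18 receptor rose, Il18r1 by 3.25 (4.34 ± 0.15 in control and 7.59 ± 0.5 in deleted cells, SD, n = 3) and Il18rap by 2.42. Csf1r (3.69), Csf2rb2 (2.0), Il6ra (1.71) and Kit (1.82) were higher, and Il10ra (-1.54), Il6st (-1.23) and Il21r (-0.85) were lower beside Il2ra.

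Of 14 genes of the Bcl2 family, which set the balance between survival and death at the mitochondrion, 2 fell and none rose (median 0.02). Bcl2l1, encoding the survival protein Bcl-xL, was at 8.83, 8.41 and 8.25 in control and at 7.93, 7.14 and 6.94 in deleted cells (difference -1.16, SE 0.17, adjusted p = 0.0033 by limma). All deleted values were below all control values, but the genotypes were close and the adjusted p from limma was 0.237 without the block. Bcl2l11, encoding the death activator Bim, was at 11.98, 12.06 and 11.61 against 10.72 to 11.16 in deleted cells (-0.92, SE 0.14). Bcl2 (-0.38, SE 0.14, adjusted p = 0.174 by limma) and Mcl1 (0.09, SE 0.13) did not pass, so a survival gene and a death gene were lower side by side.

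The stretch before the start of Bcl2l11 is shown because it holds the letters TGTTTAC, a core that forkhead factors bind, as does that of Ccnd3, a D-type cyclin that rose by 0.98. Among the named genes past the threshold that were searched, 4 held these letters in the 250 bases before a start site. Bcl2l11 is the largest fall and Ccnd3 the largest rise of these 4, the others being Il21r and Pik3cg. Not every named gene was searched, so genes left out could hold the letters and differ by more. Bcl2l11 and Ccnd3 were chosen after none of the 40 leading genes, of which 33 had a sequence, was found to hold the letters. Capitals mark the match, and sequences are from RefSeq on build GRCm38.p6, 5′ to 3′ on the gene's strand.
Bcl2l11 (chr2:128125788-128126037, + strand): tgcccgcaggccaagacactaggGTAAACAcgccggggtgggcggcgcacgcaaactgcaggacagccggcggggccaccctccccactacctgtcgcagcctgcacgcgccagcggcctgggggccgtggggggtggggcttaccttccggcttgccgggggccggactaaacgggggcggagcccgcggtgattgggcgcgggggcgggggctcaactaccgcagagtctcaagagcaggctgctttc
Ccnd3 (chr17:47504801-47505050, + strand): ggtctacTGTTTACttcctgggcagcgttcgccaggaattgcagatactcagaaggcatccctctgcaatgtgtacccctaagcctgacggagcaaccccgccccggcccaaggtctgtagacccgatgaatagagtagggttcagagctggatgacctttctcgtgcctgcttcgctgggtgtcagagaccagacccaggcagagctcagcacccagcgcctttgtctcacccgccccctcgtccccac
The match in Bcl2l11 is on the opposite strand (read as GTAAACA) and begins 227 bases before the start, and that in Ccnd3 begins 243 bases before it. Both genes have 2 start sites in the table, and 1 of them is shown. Over windows of 300 bases (250 before and 50 after each start), searched on both strands, 3.65% of 32851 windows held the letters. So did the windows of 3.15% of 7653 tested genes with a sequence, 3.39% of 354 that rose and 4.62% of 173 that fell. These shares lie close to one another, and a match is only a description of the letters.

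Other death and survival genes moved in single cases, with 4 higher and 1 lower of 22 caspases, death receptors and BAFF receptors. Tnfrsf21, death receptor 6, rose by 3.57 (4.73 ± 1.08 in control, 8.31 ± 0.57 in deleted, SD, n = 3) and was the one of the 5 that passed without the block. Fasl (0.93), the mitotic survivin gene Birc5 (2.01) and Tnfrsf13b, a BAFF receptor (0.62), were higher, and the inflammatory caspase Casp4 was lower (-0.91).

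Several genes of early B cell stages rose. Of 21 tested, 7 rose and 1 fell, and the median was 0.43. Dntt, the template-free polymerase that adds bases at antibody gene joints, was at 2.36, 2.41 and 2.27 in control and at 5.87, 6.17 and 5.15 in deleted cells (difference 3.38, SE 0.23, adjusted p = 6.46e-05 by limma). Rag1, the recombinase subunit, was at 6.05, 5.83 and 6.06 against 8.1, 8.06 and 6.91 (1.71, SE 0.38), so that deleted replicate 3 lay nearest to the controls. Leaving out 1 array took its adjusted p from limma to 0.145 at most. The probe set of its partner Rag2 did not pass the filter on low values.

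The transcription factors Sox4 (1.2) and Lef1 (1.16), the surface proteins Spn, or CD43 (2.43, from 7.63 ± 0.25 to 10.06 ± 0.1, SD, n = 3), and Cd93 (0.7), and the receptor Kit (1.82) rose, while Cd24a, high on immature B cells, fell by 0.87. Without the block 5 of the 7 rises passed, and 2 did when replicate 1 or replicate 2 was left out of every group. Some of these genes, Kit among them, are also known from progenitor cells, whose markers are described below.

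Most genes on the list of B cell identity transcription factors were near their control levels, with 4 higher and 2 lower of 49 (median -0.02). Zfhx3, a large zinc finger and homeodomain protein, was at 4.09, 3.6 and 2.82 in control and 8.22, 9.65 and 8.71 in deleted cells (difference 5.36, SE 0.38). Its control mean of 3.51 is close to the floor. Arid3a (1.19), Lmo2 (1.29) and Ikzf2 (1.27) rose, and all 4 rises passed without the block. Ebf1, which specifies the B lineage, fell (-0.73), as did Irf4 (-0.89). Among 11 forkhead genes Foxn3 was the one to pass (-0.73).

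Markers of mature subsets differed from list to list. Follicular and marginal zone markers had 1 rise of 18, in Ffar2 (2.4), a receptor for short-chain fatty acids, and no fall. Of 19 B-1 cell markers 3 rose and 5 fell. The falls were in Serpinb7 (-3.0, above 4 on the control arrays alone), Crisp3, a secreted cysteine-rich protein (-2.97, from 8.41 ± 0.15 to 5.45 ± 0.18, SD, n = 3), Ctla4, Il10 and Nid1 (-1.66), and the rises in Spn, S100a6 (2.99) and Anxa2 (1.42). Of 13 germinal centre genes, Neil1, a DNA glycosylase (2.3), and the kinase Nek2 (2.0) rose and Ung (-1.02), which removes uracil from DNA, and Il21r fell. Of 21 plasma cell genes 3 rose: Fut8, Tram2 (1.32) and the immunoglobulin alpha gene Igha (1.95), which overlapped between genotypes at 12.16 ± 1.69 and 14.11 ± 0.63 (SD, n = 3).

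Receptors that guide B cells were changed one by one, with 7 rises and 4 falls of 33. Gpr183, the oxysterol receptor that positions B cells in the follicle, fell from 10.51 ± 0.22 to 9.0 ± 0.18 (SD, n = 3; difference -1.51, adjusted p = 0.00196 by limma) beside Ccr6, and Itgav (-1.1) and P2ry10 (-1.0) fell too. Cxcr3 rose by 2.38 and Itga4, an integrin chain, by 1.02, and Mpzl2, an adhesion molecule of lymphocyte progenitors and epithelia, rose from 4.49 ± 0.79 to 9.13 ± 1.08 (SD, n = 3; 4.64). Ccr2 (1.86) and Ccr9 (1.01) also rose.

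Slamf1, Slamf6 and Slamf9, of the SLAM receptor family, and both PD-1 ligands rose. Slamf1 was at 5.66, 6.2 and 6.34 in control and at 8.57, 9.35 and 9.25 in deleted cells (difference 2.99, SE 0.15, adjusted p = 1.12e-05 by limma), and Slamf6 rose by 1.77 and Cd274, PD-L1, by 1.72. With Slamf9 and Pdcd1lg2 they made up the 5 rises among 27 activation and costimulation genes, where Cd69 and Cd83 were the 2 falls. The SLAM family members Cd84 (0.41), Cd48 (0.15), Ly9 (-0.11) and Slamf7 (-0.38) did not pass. Of 22 Toll-like receptor genes, Cd180 (0.71), Cd14 (2.87) and Irak3 (1.08) rose, none of which passed without the block. In MHC class II presentation 1 of 19 genes passed, H2-Eb2 (-1.03), and among 21 Notch and Wnt genes 1 did, Lef1. Of 24 Rgs and G protein genes Gng11 alone rose (1.3).

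Of 27 phospholipases and lipid mediator enzymes 3 rose (Plb1, Pla1a, Hsd17b13) and 3 fell (Cyp4f18, Plcxd2 at -1.33 and Dgkh at -1.29), and Hsd17b13 had passed the filter through the deleted arrays alone. Of 36 actin and membrane linker genes 6 rose and 2 fell. Pls1, an actin-bundling plastin, was at 4.56 ± 0.13 in control cells (SD, n = 3) and rose by 5.44 (SE 0.3, adjusted p = 2.24e-05 by limma), and Myo1f (2.8), Fscn1 (2.03), Tpm1 (1.81), Pdlim1 (1.33) and Coro2a (1.04) were higher, while Tpm4 (-0.69) and Plek (-0.82) were lower. Serpins and other protease inhibitors had 3 rises, in Slpi, Serpinf1 (2.91) and Cst7 (1.82), and 2 falls, in Serpinb7 and Serpini1 (-0.72), of 15. Of 34 redox genes Msrb3 and Txnrd3 (-1.09) fell.

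Many genes of mitosis were higher. Of 38 tested 9 rose and none fell, 37 had a positive difference, and the median was 0.97. Ccna2, cyclin A2, went from 6.14 ± 0.5 to 7.87 ± 0.74 (SD, n = 3; 1.73), Nek2 from 4.01 ± 0.26 to 6.0 ± 0.3 (2.0), Pbk from 5.38 ± 0.59 to 7.38 ± 1.03 (2.0) and Cdc25b from 8.84 ± 0.61 to 10.15 ± 0.46 (1.31). Without the block 2 of the 9 passed. Without the replicate 3 array of deleted cells with IgM 26 did, and without replicates 1, 2 and 3 in turn 0, 1 and 22. The proliferation marker Mki67 rose within pairs (1.6), but its replicates spread more widely than that (5.96 ± 2.21 in control and 7.56 ± 1.9 in deleted cells, SD, n = 3). Of 36 genes of DNA replication and the start of S phase Ccnd3, Ccne1 (0.78), Rrm2 (1.05) and E2f8 (1.12) rose and none fell. Among 34 FOXO targets and cell cycle inhibitors Trib2 (1.55) and Rag1 rose and Trib1 (-1.58) fell.

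Of 43 ribosome biogenesis genes 4 fell and none rose. The difference was negative for 43 of 43 genes, with a median of -0.38. The falls were in Nop58 (-1.19), Gnl3 (-0.75), Grwd1 (-0.68) and Nop56 (-0.66). Nop58 alone passed without the block. Without the replicate 3 array of deleted cells with IgM 26 of the 43 fell, and without replicates 1, 2 and 3 in turn 0, 0 and 11 did. Of 28 amino acid transport and ATF4 target genes Cth, which makes cysteine, went from 6.22 ± 0.18 to 4.24 ± 0.17 (SD, n = 3; -1.98), Trib3 (-0.99), Slc7a1 (-0.68) and Slc7a7 (-0.61) fell and the lipoprotein receptor Vldlr rose (3.11). Of 27 glycolysis genes the hexokinases Hk1 (1.47) and Hk3 (1.49) and Tktl1 rose.

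No member of the cholesterol (24 tested) or heat shock and chaperone (24 tested) lists passed. Their smallest p-values belonged to Abca1 (-0.58, adjusted p = 0.233 by limma) and Idi1 (-0.47, adjusted p = 0.245 by limma), and to Dnajb9 (-0.48, adjusted p = 0.112 by limma) and Hspd1 (-0.42, adjusted p = 0.254 by limma). Of 36 interferon-induced genes, which had a median of -0.4, Usp18 (-1.21) and Stat2 (-0.98) fell and Ifit1bl1 rose (2.05). Of the 3 tested retrotransposon-derived and germline genes Rtl5 was the one to pass.

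**Figure D3:**
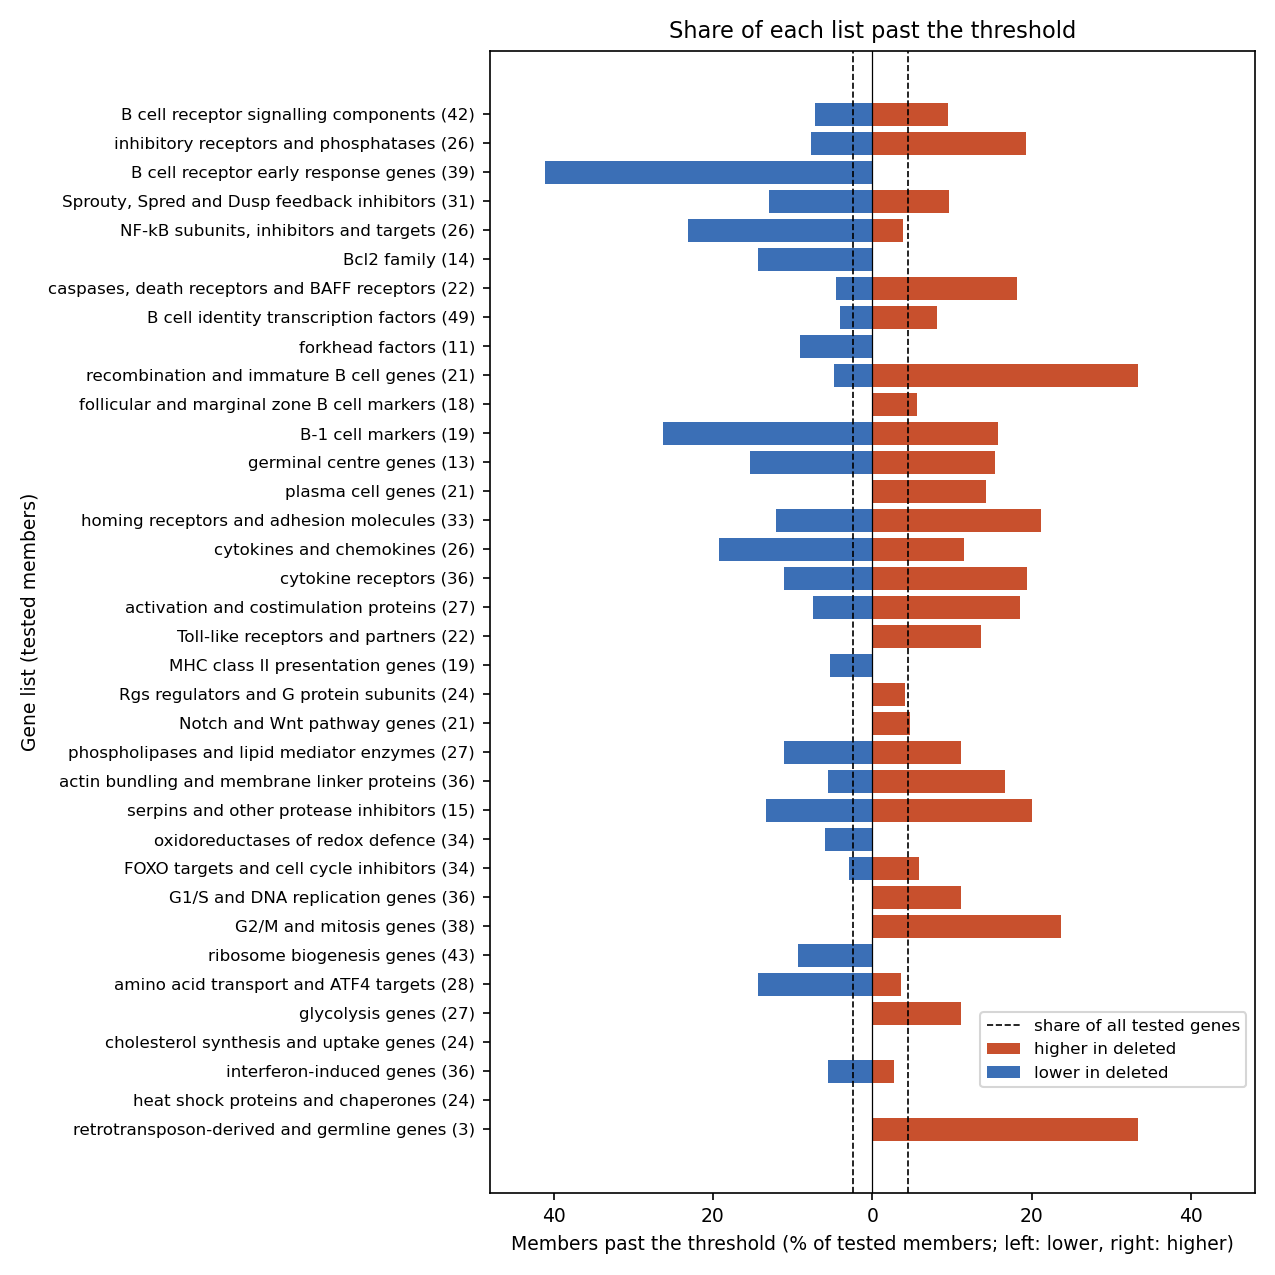
Share of each gene list past the threshold, in percent of its tested members (number in brackets), higher in deleted cells to the right (red) and lower to the left (blue); dashed lines give the shares over all 9293 tested genes, 4.51% and 2.38%. The early response genes of the B cell receptor have the longest bar to the left (16 of 39 lower, none higher), while the mitosis list has rises only (9 of 38). The lists were chosen with earlier results of these data known, so an excess over the dashed lines may be partly built in.

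Markers of other blood cells were higher on the deleted arrays. The counts that follow stand beside shares of 4.51% higher and 2.38% lower over all tested genes. These lists too were chosen with earlier results of these data known. Of 12 tested neutrophil and granule markers 4 rose and all 12 had a positive difference (median 2.59), and the mean over the 15 on the array was 3.55 to 5.74 in control and 4.87 to 8.13 in deleted cells. Of 9 tested macrophage and monocyte markers 6 rose, among them Lyz2 (2.87), F13a1 (4.08) and Csf1r (3.69), and Adgre1 fell (-1.45). Here the mean over 21 genes was 3.35 to 3.92 in control and 4.02 to 4.79 in deleted cells, and 11 of them, including C1qa, Fcgr1, Mertk and Marco, lay at or below 4 on all 6 arrays. Of 8 tested mast cell and basophil markers 6 rose, among them Mcpt8 (2.74), Cpa3 (2.52) and Ms4a2 (2.52). The mean over 12 genes was 4.11 to 4.96 in control and 5.43 to 6.29 in deleted cells, with Mcpt4, Cma1, Tpsb2 and Tpsab1 at or below 4 throughout.

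Haematopoietic progenitor markers rose in 5 of 10 tested, led by Cd34 (3.67, from 3.97 ± 0.97 to 7.64 ± 0.96, SD, n = 3), and all 10 had a positive difference. Their mean over 13 genes was 4.88 to 5.44 in control and 6.23 to 6.83 in deleted cells, with Hoxa9 and Mecom at or below 4. Of 13 tested NK cell markers 4 rose (Klrk1 1.56, Klrd1 1.19, Klrc1 1.24, Fcer1g 2.3), with a mean of 4.93 to 6.16 in control and 6.25 to 7.14 in deleted cells over 15 genes. Among 9 tested T cell markers the adaptor gene Lat rose (1.67). The mean of the 17 T cell markers was 3.87 to 4.46 in control and 4.24 to 5.11 in deleted cells, while Cd4, Cd8a, Cd8b1, Cd6, Zap70 and Thy1 lay at or below 4 on all 6 arrays.

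Dendritic cell markers had 3 rises, in Siglech (1.27), Cd209a (1.52) and Ccr9, and 1 fall, in Zbtb46 (-1.6), of 11, with means of 6.41 to 6.59 in control and 6.53 to 7.09 in deleted cells. Of the other lists, Alas2 rose among 7 erythroid markers (2.39), whose mean was 4.94 to 5.19 in control and 5.0 to 6.7 in deleted cells. Pf4 rose among 2 platelet markers (means 3.13 to 3.68 and 3.73 to 4.33) and Pecam1 among 2 stromal and endothelial ones (means 2.75 to 2.84 and 3.04 to 3.17). Without the block none of the granule rises, 2 of the macrophage, 2 of the mast cell, 4 of the progenitor and 1 of the NK rises passed. When replicates 1, 2 and 3 were left out of every group in turn, 0, 3 and 0 mast cell markers rose, 0, 1 and 4 granule markers, 1, 2 and 8 macrophage markers, 1, 4 and 3 progenitor markers and 0, 0 and 6 NK markers. The part of such cells in the rises of granule proteins, Ccl6, Ccl9, Csf1r, Csf2rb2, Kit, Lair1, Cd300a, Cd14 and the mitosis and immature B cell genes was not tested. Among the 15 pan-B cell markers Ebf1 fell and none rose.

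**Figure D4:**
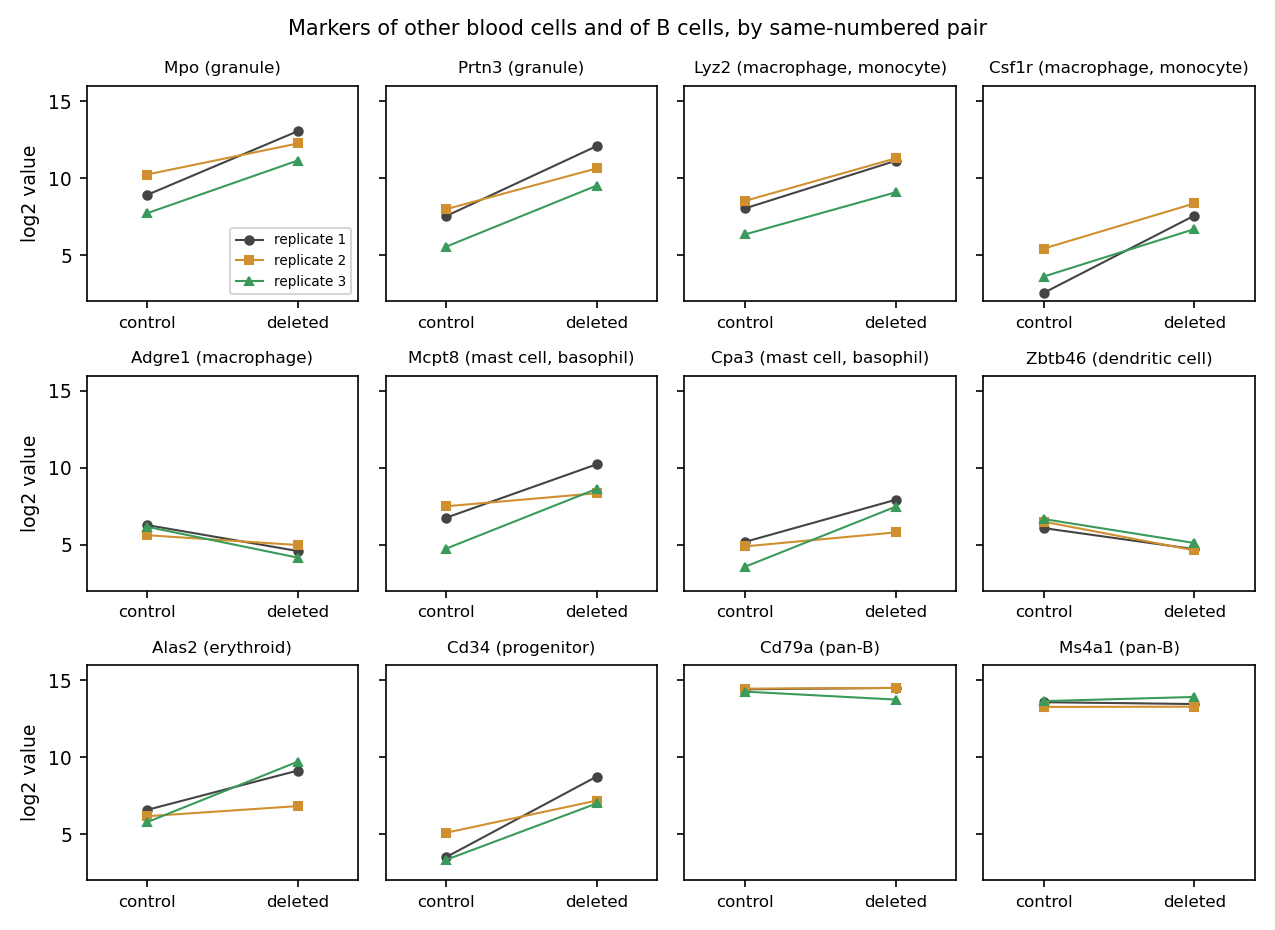
Log2 values of 8 markers of other blood cells that rose, chosen for that, of 2 that fell (Adgre1 and Zbtb46), and of the pan-B markers Cd79a and Ms4a1, on control and deleted arrays, with 1 line per same-numbered pair. Among those that rose, replicates of 1 genotype often lie more than 1 log2 unit apart, while Cd79a and Ms4a1 stay between 13 and 15 on all 6 arrays.

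Genes next to Foxp1 on its chromosome were counted separately. Of the 40 nearest tested genes, 20 on either side, 1 rose and 2 fell (7.5%, against 6.89% of all tested genes and 7.73% of those on the same chromosome, 6). Of the 10 nearest, 5 on either side, 1 rose and 1 fell (20%). Eif4e3, a cap-binding protein gene, was at 7.36, 7.27 and 6.73 in control and at 8.54, 8.79 and 8.24 in deleted cells (difference 1.4, SE 0.16, adjusted p = 0.000971 by limma). Shq1, needed for assembly of small nucleolar RNA particles, was at 7.2, 7.14 and 6.38 against 6.06, 6.03 and 5.46 (-1.06, SE 0.18). The other 8 (Suclg2, Eogt, Tmf1, Uba3, Mitf, Ppp4r2, Trnt1 and Crbn) had differences of -0.48 to 0.16 and did not pass.

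The same genotype comparison with IgM used other arrays but the same fit. Same-numbered arrays with and without IgM deviated together, with correlations of 0.69 to 0.85 in control and 0.32 to 0.72 in deleted cells. The comparisons are therefore not independent of each other. With IgM 628 genes passed (6.76%), 526 higher (5.66%) and 102 lower (1.1%). Of the 419 genes that rose without IgM, 408 had a positive difference with it and 228 rose (54.4% of the 419 and 43.3% of the 526), with a median difference of 1.14. Of the 221 that fell, 195 had a negative difference with IgM and 43 fell (19.5% of the 221 and 42.2% of the 102), with a median of -0.43. Dntt kept a rise with IgM (2.74), as did Slpi (3.36), Mpo (3.36) and Igf2bp3 its fall (-1.91), while Nr4a1 was at -0.53 (adjusted p = 0.109 by limma) and Bcl2l11 at -0.05. For Nr4a1 and Bcl2l11 the change between both comparisons did not itself pass (interaction adjusted p = 0.131 and 0.177 by limma).

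A test of the difference between both comparisons (the interaction) passed for 16 genes (0.172%). Of these, 6 (Hsd17b13, Neo1, Tgfa, Tmtc1, Scn11a and Gm19935) were above 4 on the 3 deleted arrays without IgM alone, so the filter on low values fixed that they would differ. Of the other 10, Zfhx3 had a difference of 5.36 without and 1.39 with IgM, Qpct 6.26 and 2.55, Il1r1 3.73 and 0.78, and Chka 4.14 and 1.8. Spry1 was the gene whose genotype difference turned, from 3.63 without IgM to -1.59 with it (adjusted p = 0.0133 by limma). Slfn1, a Schlafen gene, fell by 1.73 without IgM and was at 0.14 with it, and Mturn and Pmp22 passed only with IgM.

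**Figure D5:**
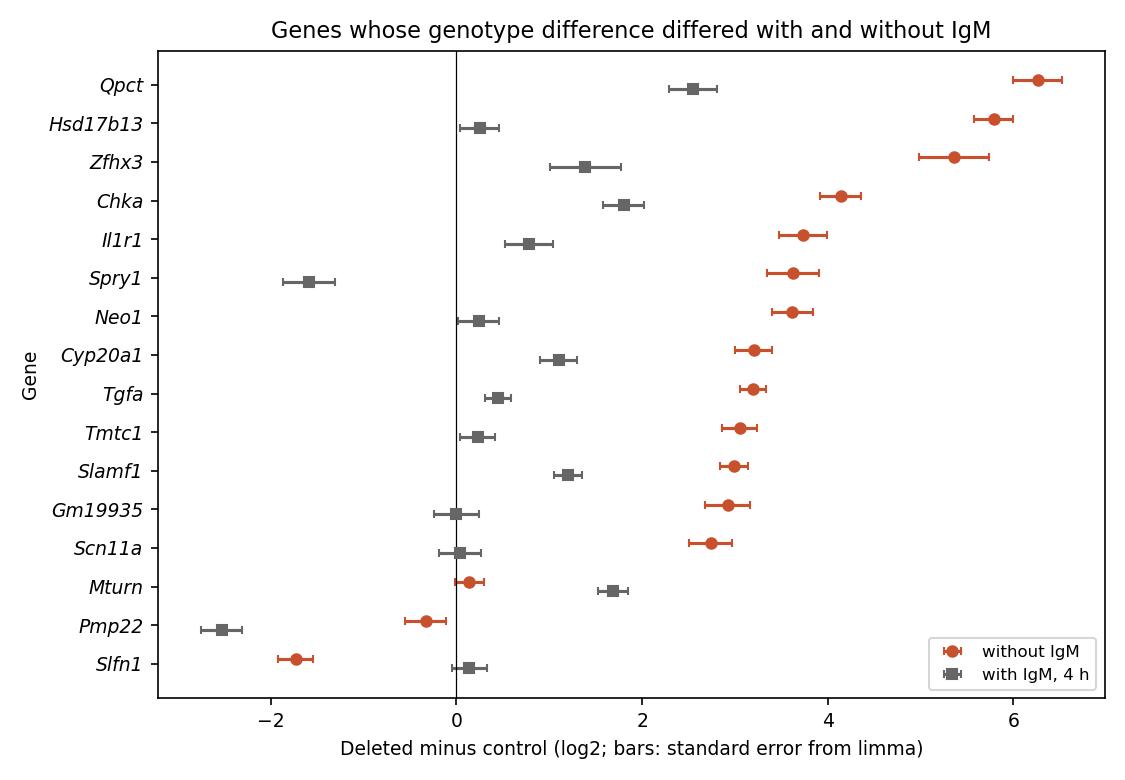
Genotype difference (deleted minus control, log2) without IgM (circles) and after 4 h with IgM (squares) for the 16 genes that passed the interaction test, with standard errors from limma as bars. The circle lies to the right of the square in 14 genes and to the left in Slfn1 and Mturn, Spry1 changes side (3.63 and -1.59), and Mturn and Pmp22 lie near 0 without IgM.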

How the data were processed

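RNA of 12 samples was measured on one-colour Affymetrix arrays. The authors deposited log2 intensities. The submitters' processing notes name GCRMA, a method that models background by probe sequence, equalises the arrays' distributions and combines the probes of a set. Its version was not given in the sources used here. Values ran from 2.23 to 15.79 and were taken as log2 for that reason. The array has 45101 probe sets, 64 of them controls. Platform annotation named 1 gene for 34945, several for 932 and none for 9160, and only those with 1 gene were used. Symbols of 34741 were updated through gene identifiers with a RefSeq table of GRCm38.p6, used also for the order of genes along chromosomes. A probe set was kept when above 4 on at least 3 arrays (19187 passed), and a gene was read by its passing probe set with the highest mean.

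limma 3.58.1 (R 4.3.3; lmFit, contrasts.fit, eBayes) fitted 1 mean for each of the 4 groups on all 12 arrays, so that they share 1 estimate of the spread, with the replicate number as a block. Residual degrees of freedom were 6. The numbers come from the labels. Same-numbered arrays of every pair of groups sharing a genotype or treatment deviated together (correlations 0.17 to 0.85 over 12 pairs), so they were taken to pair the samples. With IgM, however, deleted replicate 2 correlated more with control replicate 1 (0.35) than with control replicate 2 (0.17). The mean level of the array's poly-A control probe sets also followed the number. Without IgM it was 10.65, 9.52 and 8.61 in control and 10.19, 9.34 and 8.58 in deleted replicates 1, 2 and 3. How much of the shared deviation is technical was not tested. Precision is limited by the number of arrays. The fit was tested on simulated data.

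The comparison, the gene lists and the rule for named genes were chosen with earlier results of these data known. The rule named the 12 largest rises and 12 largest falls with both means above 6 and 3 pairs in 1 direction, the 8 genes per direction with the highest level in 1 genotype and all values of the other at or below 4, up to 4 members per list with the smallest p (2 where none passed), Foxp1, Bcl2l1, Bcl2l11, Bcl2, Mcl1, Rag1, Rag2 and Dntt, and the 5 tested genes on either side of Foxp1. Other called list members are named to complete small counts and were chosen after their values were seen. Predicted genes were skipped. Alternatives covered the block, which arrays entered, the threshold, the filter, array weights, a further normalization, the probe set read and the variance model. Genes without a passing, uniquely named probe set were not analysed here.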

Additional observations from a re-analysis of the deposited data

Results flagged for a closer look

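For 16 genes the genotype difference with IgM differed from that without it, by limma's interaction test. In each sentence the value is the difference with IgM minus that without (log2), with its adjusted p from limma. The rise in deleted cells was smaller with IgM for Hsd17b13 (-5.53, 0.000127), Zfhx3 (-3.97, 0.0295), Qpct (-3.71, 0.00518), Neo1 (-3.38, 0.00323), Il1r1 (-2.95, 0.0207) and Gm19935 (-2.92, 0.014). It was also smaller for Tmtc1 (-2.83, 0.00338), Tgfa (-2.74, 0.000975), Scn11a (-2.7, 0.014), Chka (-2.34, 0.0295), Cyp20a1 (-2.1, 0.0303) and Slamf1 (-1.79, 0.0134). Spry1 (-5.22, 0.000975) was higher in deleted cells without IgM and lower with it. Slfn1 (1.87, 0.0362) was lower in deleted cells without IgM, Mturn (1.54, 0.0458) higher with it, and Pmp22 (-2.21, 0.0362) lower with it.

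Il1r1 and Chka reached different levels in control cells under the 2 treatments. Control means were 3.01 without and 7.5 with IgM for Il1r1 (deleted: 6.74 and 8.28) and 6.51 and 8.2 for Chka (deleted: 10.65 and 9.99). Hsd17b13 was near the floor in control cells under both treatments (2.42 and 2.34) and in deleted cells with IgM (2.6), so its high level was seen in deleted cells without IgM (8.21). Hsd17b13, Neo1, Tgfa, Tmtc1, Scn11a and Gm19935 were above 4 on those 3 arrays alone and passed the filter on low values only through them, so that filter fixed that they would differ and their p-values support nothing further.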

How the results depend on the processing

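No named gene past the threshold changed sign under any alternative, but this says little. Several alternatives leave the difference itself unchanged, and all 640 genes already moved the same way in the 3 same-numbered pairs. Without the replicate block 265 of the 640 genes passed, and of 149 named genes past the threshold 85 kept their call and 64 lost it. At a threshold of 0.01, 273 genes passed, without the filter on low values 384, and with a mean above 6 over all arrays 362. On the 6 unstimulated arrays alone 1343 passed with the block, 605 of them among the 640, and 301 without it. Without the replicate 3 array of deleted cells with IgM 2007 passed, and with array weights 2124. Leaving out 1 unstimulated array gave 279 to 420 genes, and leaving out a replicate number in all groups 69 to 1201. The stricter filter, the filter on unstimulated arrays, further normalization, other choices of probe set and a robust variance model gave 476 to 687. For the interaction, 10 genes passed without the block, 6 at a threshold of 0.01, 10 with a filter above 6, 27 and 26 with the mean of probe sets or every probe set, 187 without that array and 389 with array weights. None did where the mean had to be above 6, where 5 of the 16 were still measured. Leaving out 1 array or replicate number gave 0 to 33. Signal near the floor limits what the lowest values show, and the causes of these shifts were not tested.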

Other observations

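Genes past the threshold were spread over all autosomes and the X chromosome, at 4.42% (chromosome 4) to 9.12% (chromosomes 1 and 19) of those tested. On chromosome X 16 of 274 rose and 6 fell, and none of the 3 tested genes on chromosome Y passed.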
